A study of Mus musculus with 32 samples.

Results

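The genes described here are 10 regulators of red cell formation: the DNA-binding activators Gata1, Klf1, Tal1 and Nfe2, the cofactors Zfpm1, Lmo2 and Ldb1, the repressors Gfi1b and Bcl11a, and the erythropoietin receptor gene Epor. They were taken by name, as the non-control probes annotated to them, which were 13 of 39429 probes on the array. All 10 genes passed the detection filter and stood among 15164 genes tested. Transcripts were measured in whole blood of 32 male C57BL/6 mice, 1 mouse per Agilent 1-colour array, 24 h after X rays or sham exposure (0 Gy). Wild-type (WT) mice received 8 Gy (5 mice) or 0 Gy (6 mice). ATM-/- mice (Atm) received 4 Gy (6 mice) or 0 Gy (5 mice), while Scid mice were given 3 Gy (5 mice) or 0 Gy (5 mice). ATM-/- mice lack the kinase that signals DNA double-strand breaks, and the Scid mutation lies in Prkdc, whose kinase joins broken DNA ends and is needed to assemble antigen receptor genes. Doses were set per genotype for like lethality and not for like energy, so dose and genotype cannot be told apart between genotypes. In all groups blood was drawn by cardiac puncture and globin transcripts were depleted from the RNA.

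In red cell precursors GATA1 binds DNA with its cofactor FOG1 (the Zfpm1 product) and with a complex in which TAL1 is bridged by LMO2 and LDB1, while KLF1 binds CACC-type motifs of globin and red cell membrane genes. GFI1B and BCL11A repress, and erythropoietin keeps the precursors alive through EPOR. Several of these factors, among them GATA1, TAL1, NFE2, FOG1 and GFI1B, also act in megakaryocytes, the cells that shed platelets, and BCL11A is needed for B cell development. Young red cells and platelets circulate without a nucleus but still carry RNA from the precursors they came from, so blood reports on the transcripts those cells keep. In such a mixed tissue, fewer cells of a type and less RNA per cell cannot be told apart.

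Promoters are printed for 4 members: Klf1, which fell in irradiated WT blood, and Gata1, Gfi1b and Epor, whose levels moved together from array to array. Each runs from 250 bases before to 50 after the RefSeq start site in build GRCm38.p6, 5′ to 3′ on the gene's own strand, with capitals where a searched motif matched on either strand. The motifs searched were AGATAA and TGATAA, which are known sites of GATA factors. Those of KLF factors were searched as CACNCCC, the E-box bound by TAL1 with its partner as CAGNTG, and the site of NFE2 as TGANTCA. Among 32851 promoters of the same length, 11.2% held AGATAA, 9.05% TGATAA, 29.2% CACNCCC, 51.4% CAGNTG and 7.81% TGANTCA, and a match describes the letters only. RefSeq promoters were matched for 8 of the 10 members.
Klf1 (chr8:84901732-84902031, plus strand): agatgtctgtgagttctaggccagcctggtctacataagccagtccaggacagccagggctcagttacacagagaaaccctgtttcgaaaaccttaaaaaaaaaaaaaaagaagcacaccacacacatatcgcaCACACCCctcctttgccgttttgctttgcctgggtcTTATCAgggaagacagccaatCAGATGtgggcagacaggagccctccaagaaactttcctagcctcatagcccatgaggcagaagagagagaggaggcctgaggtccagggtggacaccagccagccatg
Gata1 (chrX:7967861-7968160, minus strand): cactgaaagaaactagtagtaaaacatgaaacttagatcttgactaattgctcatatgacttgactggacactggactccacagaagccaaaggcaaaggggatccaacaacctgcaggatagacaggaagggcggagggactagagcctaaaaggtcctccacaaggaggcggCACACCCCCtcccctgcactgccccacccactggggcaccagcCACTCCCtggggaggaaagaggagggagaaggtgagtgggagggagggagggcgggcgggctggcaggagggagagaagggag
Gfi1b (chr2:28621933-28622232, minus strand): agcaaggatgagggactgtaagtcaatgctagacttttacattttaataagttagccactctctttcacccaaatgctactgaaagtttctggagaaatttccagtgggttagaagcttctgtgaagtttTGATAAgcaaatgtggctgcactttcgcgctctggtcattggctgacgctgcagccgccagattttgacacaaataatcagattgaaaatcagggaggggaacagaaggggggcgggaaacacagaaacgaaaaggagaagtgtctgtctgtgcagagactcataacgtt
Epor (chr9:21963527-21963826, minus strand): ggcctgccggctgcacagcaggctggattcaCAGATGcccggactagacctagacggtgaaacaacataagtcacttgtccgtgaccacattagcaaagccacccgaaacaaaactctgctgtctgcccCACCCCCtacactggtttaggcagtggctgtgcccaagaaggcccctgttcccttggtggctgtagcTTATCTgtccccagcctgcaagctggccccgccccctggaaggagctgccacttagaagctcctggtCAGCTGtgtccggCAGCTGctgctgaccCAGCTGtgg
The Klf1 window held 1 TGATAA, 1 CACNCCC and 1 CAGNTG match. The Gata1 window held 3 CACNCCC matches, of which the upstream pair overlaps, and the Gfi1b window held 1 TGATAA match. The Epor window held 1 AGATAA, 1 CACNCCC and 4 CAGNTG matches.

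A level below is the log2 signal of a gene's probe relative to the 75th percentile of its own array, and a difference is irradiated minus 0 Gy on that log2 scale. Levels of different genes come from different probes and are not set against each other. Signal over background took the place of sequencing depth: 45.9 to 58.6% of probes were well above background in WT at 8 Gy and 28.2 to 53.5% in WT at 0 Gy. The shares were 20 to 48.2% in Atm at 4 Gy and 36.6 to 43.4% in Atm at 0 Gy, and 32.5 to 43.2% in Scid at 3 Gy and 25 to 47.7% in Scid at 0 Gy. Scanning took 4 days and covered 9 slides. The arrays carried platelet genes (18 of 18 listed, each well above background on 31 or 32 arrays) and erythroid genes (30 of 30 passing the filter). Liver transcripts were bright on 4 arrays, with a mean level over 7 hepatocyte genes of 6.99 and 7.66 in WT 8 Gy replicates 1 and 2, 7.62 in WT 0 Gy replicate 5 and 7.16 in Atm 4 Gy replicate 3. With and without these arrays the same members passed the test, Lmo2 and Klf1 in WT (2 members) and none in Atm (0 members), and their values are given below. Scid groups hold none of these arrays. The arrays next highest in this mean stayed in the fit without the 4 liver-bright ones. They were Atm 4 Gy replicate 5 (4.88), WT 0 Gy replicate 2 (4.11), Atm 0 Gy replicate 2 (3.86) and WT 0 Gy replicate 4 (3.08).

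In irradiated WT blood the transcripts of Lmo2, the bridging cofactor of the TAL1 complex, and Klf1, the activator of globin and red cell membrane genes, fell 7.79-fold and 3.42-fold. No member rose past the test. Gata1, Tal1, Nfe2, Gfi1b and Epor were all fitted higher, by 0.32 to 1.0 on the log2 scale, without passing it. So 2 of 10 members fell, against 6.07% of all genes called lower and 1.14% called higher. The median difference of the members was -0.03, against -0.02 over all genes, with 5 members fitted lower and 5 higher, and 5 members had an unadjusted p under 0.05, as 20.7% of all genes did. The scaling bears on this count: with each array scaled on the 75th percentile of those probes that every array detected, 5 members passed, Lmo2 and Klf1 lower and Nfe2, Gfi1b and Epor higher. Under that scaling the median difference of all genes was 0.41, and 782 genes were called higher and 618 lower, against 173 higher and 920 lower here. After normexp background correction, another treatment of dim signals, the 3 members called were others: Gfi1b and Epor higher and Bcl11a lower. Here normexp also added an offset of 50 to every signal, dim or bright. Without normexp the 75th percentile signal ran from 17.1 to 232 over the arrays, so the offset weighs unequally between them.

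Lmo2 (probe at chr2:103821857-103821916 in build mm9) had levels of 2.54, 1.52, 2.09, 2.67 and 2.90 in the 5 WT mice at 8 Gy. In the 6 WT mice at 0 Gy its lowest level was 3.93, the median 5.42 and the highest 6.17. Every irradiated mouse lay below every sham mouse, and the probe was well above background on all 32 arrays. The difference was -2.96 (SE 0.44, 95% interval -3.85 to -2.07, adjusted p = 1.71e-05, limma). Without the 4 liver-bright arrays it was -3.03 (adjusted p = 9.1e-05). Within the 2 slides that held 1 WT mouse of each dose the difference was -3.63 and -4.22, and within the 2 scan days -3.06 and -2.74. After normexp it was -1.43 and did not pass (adjusted p = 0.235).

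Klf1 (probe at chr8:87428881-87428940 in mm9) had levels of -2.60, -2.67, -2.41, -2.85 and -2.21 in WT at 8 Gy, and 4 of these 5 arrays were well above background. In WT at 0 Gy its lowest level was -2.20, the median -0.49 and the highest 0.09, all 6 well above background. The groups did not overlap, but only by a margin of about 0.01 between the highest irradiated and the lowest sham mouse, WT 0 Gy replicate 5, whose array is 1 of those bright for liver transcripts. The difference was -1.77 (SE 0.41, 95% interval -2.61 to -0.94, adjusted p = 0.00449, limma), and it was -2.00 (adjusted p = 0.00746) without the liver-bright arrays. It was -2.46 and -2.66 within the slides and -1.76 and -1.54 within the scan days. The call was lost with slide as a block (-1.64, adjusted p = 0.0873) and with the share of detected probes as a covariate (-1.30, adjusted p = 0.0805), and also after normexp (-0.54, adjusted p = 0.143) and with spike-in scaling (-0.51, adjusted p = 0.371). The 75th percentile signal that sets the scale was 127 to 232 in WT at 8 Gy. In WT at 0 Gy it was 24.1 to 81.8, except in replicate 5 (203). Over the 32 arrays Klf1 had r of -0.52 with the share of probes well above background (-0.46 within groups), and Lmo2 -0.46 (-0.355 within groups). Lmo2 and Klf1 were the 2 members whose irradiated mice all lay below the sham mice, against 3.87% of all genes.

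**Figure D1:**
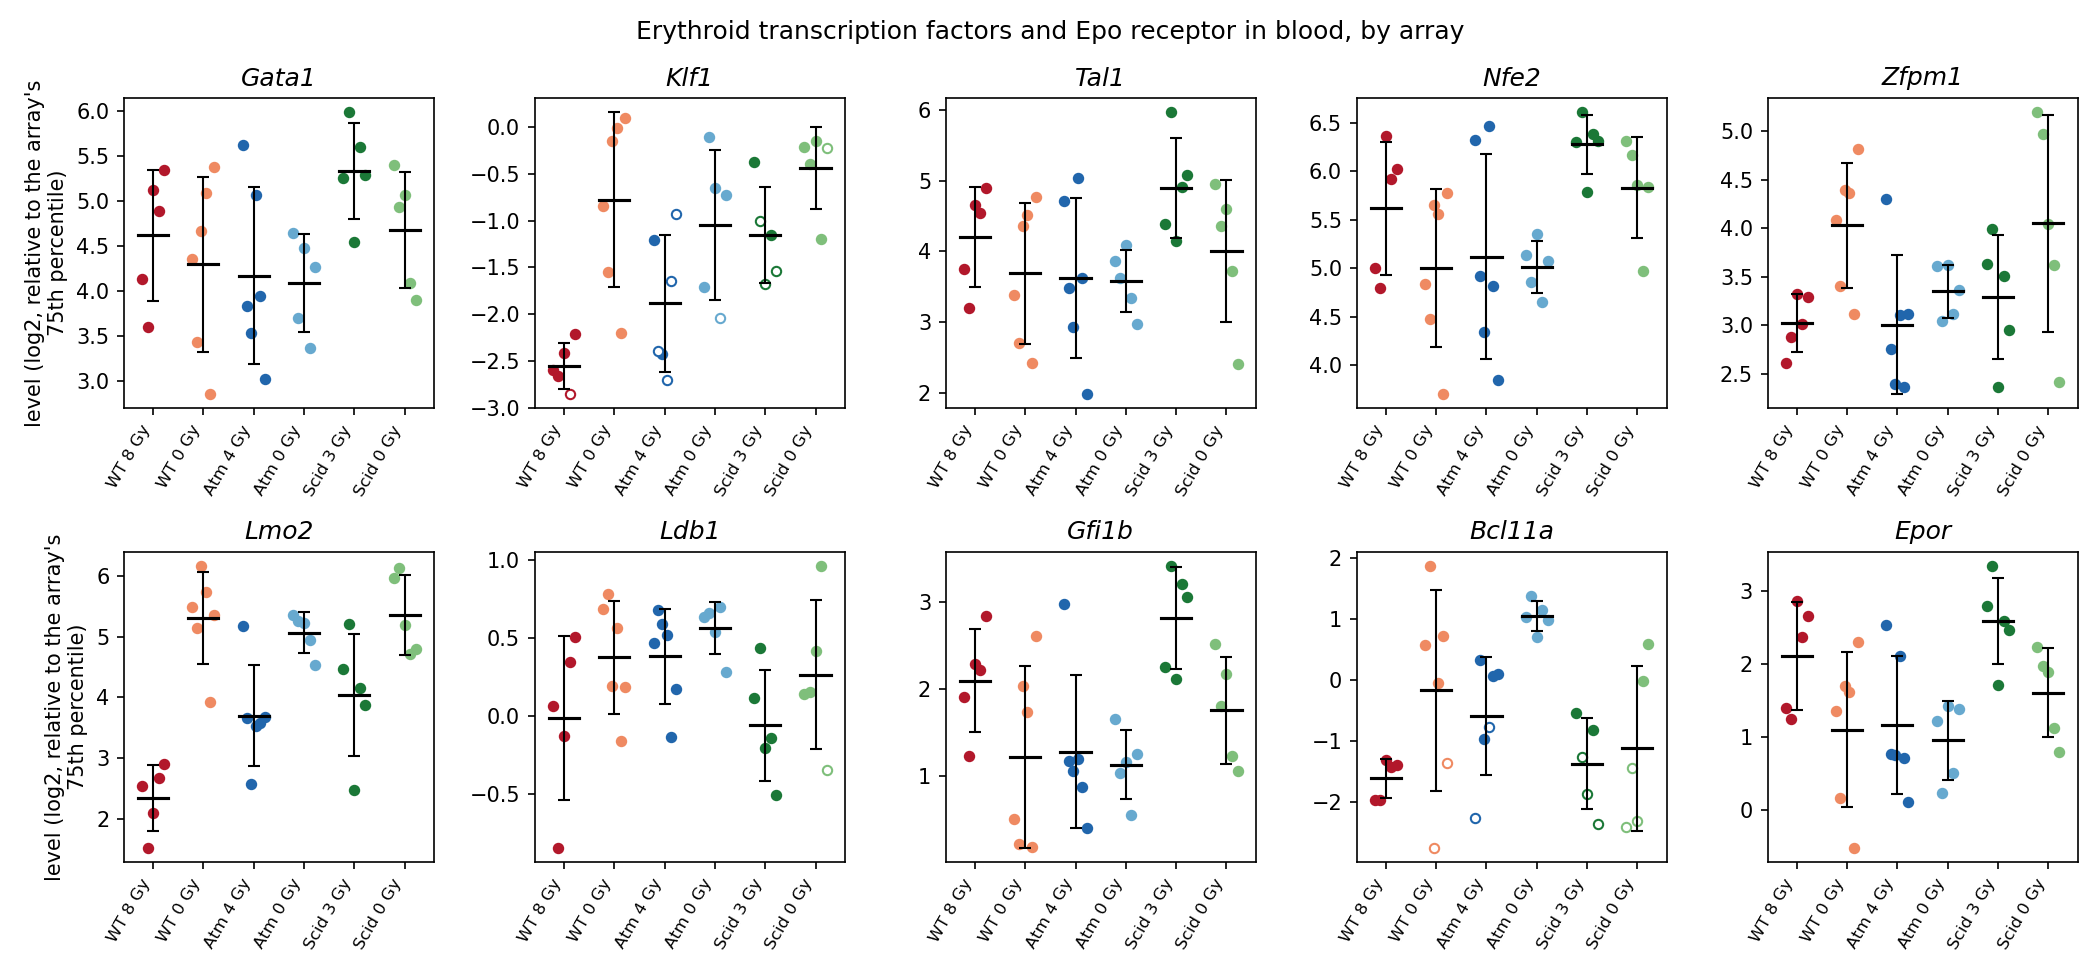
Level of each gene on every array (log2, relative to the array's 75th percentile) in the 6 groups. Points are mice, open where the probe was not well above background, and bars are mean and SD. Lmo2 lay at 1.52 to 2.90 in all 5 WT mice at 8 Gy and at 3.93 to 6.17 in the 6 WT mice at 0 Gy, whereas the groups overlapped for Gata1, Tal1, Nfe2, Gfi1b and Epor.

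The other 3 activators did not pass in WT. Gata1, the master regulator of red cell and megakaryocyte genes (probe at chrX:7536392-7536451 in mm9), had levels of 4.14, 3.61, 5.13, 4.89 and 5.35 at 8 Gy, and at 0 Gy a lowest of 2.86, a median of 4.51 and a highest of 5.38. All 5 irradiated values lay inside the sham range, with a difference of 0.32 (95% interval -0.62 to 1.26, adjusted p = 0.723). Tal1, the basic helix-loop-helix partner in the same complex, averaged 4.21 ± 0.71 at 8 Gy and 3.69 ± 0.995 at 0 Gy (SD, n = 5 and 6), a difference of 0.52 (95% interval -0.53 to 1.56). Nfe2, the large subunit of the NF-E2 factor of red cells and platelets, averaged 5.62 ± 0.68 at 8 Gy and 5.00 ± 0.82 at 0 Gy, a difference of 0.62 (95% interval -0.24 to 1.47), with 3 of 5 irradiated mice above the sham range. The intervals reach 1.26 to 1.56 upward, so neither a rise of that size nor its absence can be read from these mice.

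Of the other cofactors, Zfpm1, which encodes FOG1, was lower without passing: it averaged 3.02 ± 0.30 at 8 Gy and 4.03 ± 0.65 at 0 Gy (SD, n = 5 and 6). The difference was -1.01 (95% interval -1.85 to -0.17, adjusted p = 0.146), 3 of 5 irradiated mice lay below every sham mouse, and its other probe, whose target overlaps the first, gave -1.02 (adjusted p = 0.131 over probes). Zfpm1 differed by -1.79 and -1.49 within the slides and by -1.35 and -0.67 within the scan days. Ldb1, which holds the complex's parts together and is used in many cell types, averaged -0.01 ± 0.53 at 8 Gy and 0.38 ± 0.36 at 0 Gy, a difference of -0.39 (95% interval -0.94 to 0.17, adjusted p = 0.44).

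Epor, the erythropoietin receptor (probe at chr9:21763422-21763481 in mm9), had levels of 1.40, 1.24, 2.86, 2.38 and 2.65 in WT at 8 Gy. At 0 Gy its lowest level was -0.52, the median 1.48 and the highest 2.30. The irradiated mice fell into 3 above the whole sham range and 2, replicates 1 and 2, inside it. The difference was 1.0 (95% interval 0.05 to 1.96, adjusted p = 0.215), and without the liver-bright arrays, which include those replicates, it was 1.20 (adjusted p = 0.213). Gfi1b, a zinc finger repressor of red cell and megakaryocyte precursors (probe at chr2:28464982-28465041 in mm9), had levels of 1.91, 1.22, 2.28, 2.22 and 2.84 at 8 Gy, and 0.18, 1.12 and 2.61 as its lowest, median and highest at 0 Gy. Of the irradiated mice 1 lay above the sham range, and the difference was 0.88 (95% interval -0.02 to 1.79, adjusted p = 0.256). The positive differences of Gata1, Tal1, Nfe2, Gfi1b and Epor depended on which arrays were set against each other. On the 2 slides with 1 WT mouse of each dose all 5 genes were lower in the irradiated mouse, from -0.13 for Gfi1b to -1.48 for Gata1. Those irradiated mice are replicates 1 and 2, the liver-bright ones, and without the 4 liver-bright arrays Epor, Gfi1b and Nfe2 differed by 1.20, 1.03 and 0.84. The values of Gata1 and Tal1 in that fit are not reported here. Within groups the 5 genes had r of -0.68 to -0.51 with the hepatocyte list, and Lmo2 (-0.545) and Zfpm1 (-0.53) had like values. The part of liver RNA in these differences was not tested. Within scan day 1 (1 irradiated and 3 sham mice) the differences were 0.33 for Epor, 0.99 for Gfi1b, 0.27 for Tal1, 0.01 for Nfe2 and -0.02 for Gata1, and within day 2 (3 and 2 mice) 1.61, 0.95, 0.66, 1.06 and 0.57 in the same order.

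Bcl11a, the repressor of embryonic and fetal globin genes in red cells that is also active in B cells (probe at chr11:24073114-24073173 in mm9), ranged widely among sham WT mice. Its levels at 8 Gy were -1.96, -1.95, -1.31, -1.42 and -1.39, and at 0 Gy the lowest was -2.74, the median 0.26 and the highest 1.87. The irradiated mice lay close together inside the sham range, and the difference was -1.44 (95% interval -2.67 to -0.22, adjusted p = 0.153). Without WT 0 Gy replicate 3, the lowest sham mouse, it was -1.96 (adjusted p = 0.0275). It was called lower in 2 of 14 other settings, normexp (-1.02, adjusted p = 0.00468) and the mean of its probes (-1.63, adjusted p = 0.00413). The other probes, at chr11:24074059-24074118 and chr11:24068355-24068414, gave -1.60 (adjusted p = 0.0997) and -1.84 (adjusted p = 0.0405) over all probes tested. The second of these lay near background, well above it on 3 of 5 arrays at 8 Gy, 3 of 6 at 0 Gy and 13 of all 32. Within the slides the first probe differed by -1.90 and 0.78, and within the scan days by -1.90 and -1.86. B cell markers were also lower in irradiated WT blood: 4 of 11 tested fell, against 6.07% of all genes called lower. Among them were Vpreb3 (-4.35, adjusted p = 2.79e-06), the B cell factor gene Ebf1 (-2.42, adjusted p = 0.0116) and the complement receptor gene Cr2 (-2.35, adjusted p = 0.0131, limma). Vpreb3 was well above background on 2 of 5 arrays at 8 Gy and 5 of 6 at 0 Gy, and Ebf1 on 1 of 5 and 3 of 6. The B cell markers Cd79b and Ms4a1, chosen after their values were seen, differed by -0.08 each. The median difference of the list was -1.24, and the mean level of the list ran from -1.78 to -0.53 at 8 Gy and from -1.76 to 2.45 at 0 Gy. Of monocyte markers 3 of 7 rose, Ms4a6d (2.38), Cd14 (2.07) and Fcgr4 (1.20), against 1.14% of all genes called higher. Of T cell markers 1 of 8 fell, Cd8a (-2.48), and of neutrophil markers 1 of 8, Camp (-1.40). These are single genes, against 6.07% of all genes called lower. Another monocyte marker, Cx3cr1, chosen after its value was seen, differed by -1.675 without passing (adjusted p = 0.108, limma). T cell and neutrophil markers were each fitted lower for 7 of 8. Cd8a was well above background on 1 of 5 arrays at 8 Gy and 4 of 6 at 0 Gy. The part of B cell number or of the mix of leukocytes in the Bcl11a values was not tested.

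The list of erythroid genes taken as bound by GATA1 or KLF1 was chosen with earlier results of these data known. Its count therefore describes these data and is no independent test, and binding was not measured here. The list's median difference in WT was -2.96. At 8 Gy 22 of its 30 genes fell and 0 rose, against 6.07% and 1.14% of all genes. An example is the membrane gene Ank1 (ankyrin), at least 36.6-fold lower (adjusted p = 8.53e-07), a bound because its probe was not well above background on any irradiated array. The mean level of the list ran from 1.47 to 2.71 at 8 Gy and from 3.65 to 5.54 at 0 Gy, without overlap. After normexp the count was 7. Of 20 listed genes of erythropoietin signalling 16 were tested, of which 2 fell and 0 rose, with a median of 0.15. Those that fell were Bcl2l1, the survival gene that encodes BCL-XL (-2.58, SE 0.47, adjusted p = 0.000338), and the kinase gene Pim1 (-1.22, SE 0.37, adjusted p = 0.0361). The receptor's kinase gene Jak2 differed by -0.01 and the feedback inhibitor gene Cish by 0.65, neither passing, both chosen after their values were seen. Over the other settings this count ran from 0 to 6, and it was 1 and not 2 without any 1 of WT 8 Gy replicates 1, 2 and 4 or WT 0 Gy replicates 1, 3, 4 and 6.

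Of partner and other erythroid transcription factors, 30 of 34 listed were tested, of which 3 fell in WT and 0 rose, a share near the 6.07% of all genes called lower, with a median of 0.03. Among them were E2f2, a cell cycle factor of late red cell precursors (-4.07, SE 0.53, adjusted p = 3.89e-06), and Foxo3, an oxidative stress factor (-1.99, SE 0.49, adjusted p = 0.0076). E2f2 had levels of 2.55 to 4.47 at 8 Gy and 6.17 to 8.58 at 0 Gy. Of platelet and megakaryocyte genes 0 of 18 passed limma's test in either direction, 0 had an unadjusted p under 0.05, and the median was 0.22, although up to 13 passed under other settings (with spike-in scaling). The brightest of them, the platelet factor 4 gene Pf4 and the myosin light chain gene Myl9, differed by -0.19 and 0.02. The mean level of the list ran from 5.52 to 7.01 at 8 Gy and from 4.50 to 7.28 at 0 Gy.

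**Figure D2:**
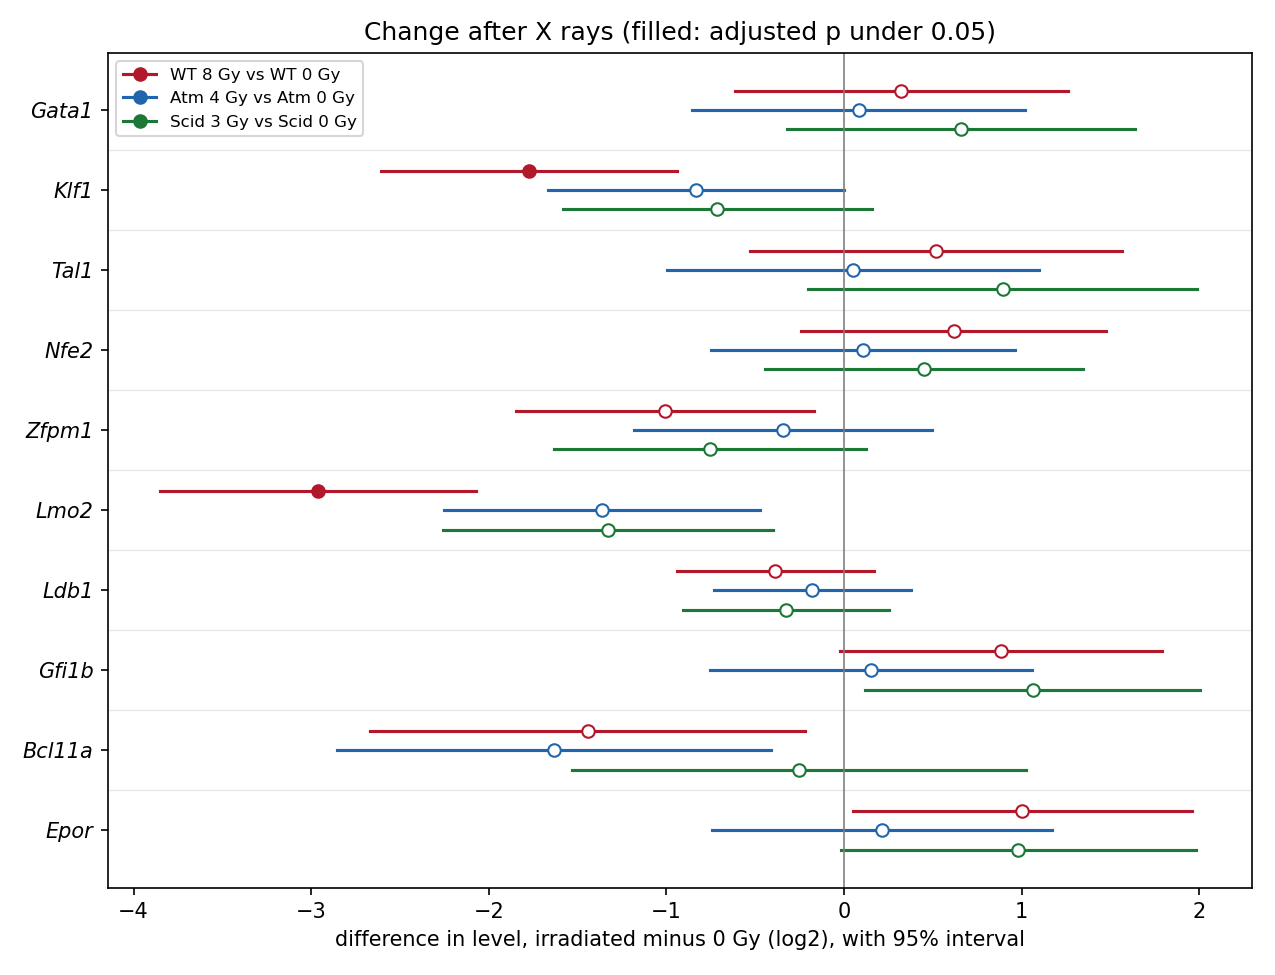
Difference in level (log2, irradiated minus 0 Gy) of each gene with its 95% interval in WT, Atm and Scid, filled where the adjusted p is under 0.05. The filled points are Lmo2 (-2.96) and Klf1 (-1.77) in WT, and Gata1, Tal1, Nfe2, Gfi1b and Epor lie right of 0 in all 3 genotypes, though in Atm their sign turned under other scalings.

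In Atm blood at 4 Gy no member passed the test. Lmo2, Klf1 and Bcl11a had the largest fitted differences, all lower (-1.36, -0.84 and -1.63), and these were the 3 members with an unadjusted p under 0.05, as 12.1% of all genes had. In this comparison 0.237% of all genes were called. The median difference of the members was -0.06, against -0.16 over all genes, and Gata1, Tal1, Nfe2, Gfi1b and Epor lay between 0.05 and 0.21, with a sign that turned after normexp (-0.30 to -0.00169) and with spike-in scaling (-1.45 to -1.29).

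Lmo2 levels in Atm at 4 Gy had a lowest of 2.57, a median of 3.63 and a highest of 5.17, and in Atm at 0 Gy they were 5.36, 5.27, 5.22, 4.95 and 4.53. Of the 6 irradiated mice 5 lay below every sham mouse, and the other, replicate 1, lay inside the sham range. The difference was -1.36 (95% interval -2.25 to -0.47, adjusted p = 0.14), and without replicate 1 it was -1.66 and passed (adjusted p = 0.0372). Of the 2 slides that held both doses, with 1 mouse of each, slide 8 gave a difference of -0.85 and slide 1, with replicate 1, gave -0.19. Scan day 3 held the same pair as slide 8, so its -0.85 is no further check. On day 1, with replicate 1 against 4 sham mice, the difference was -0.03. Without Atm 4 Gy replicate 3, the liver-bright array, it was -1.14 (adjusted p = 0.228) in the fit without the 4 such arrays. Klf1 averaged -1.88 ± 0.73 at 4 Gy and -1.05 ± 0.80 at 0 Gy (SD, n = 6 and 5), above background on 2 of 6 and 4 of 5 arrays, with a difference of -0.84 (adjusted p = 0.41). Within the slides it differed by -0.19 and 0.50. The cofactor genes Zfpm1 and Ldb1 differed by -0.34 and -0.18 (adjusted p = 0.83 and 0.875).

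Bcl11a separated the Atm groups by its brightest probe. Its levels at 4 Gy had a lowest of -2.25, a median of -0.35 and a highest of 0.33, and at 0 Gy they were 1.04, 1.38, 0.71, 1.14 and 0.98. All 6 irradiated mice lay below every sham mouse, as 1.68% of all genes did in this comparison, yet the difference of -1.63 did not pass over all genes (95% interval -2.86 to -0.41, adjusted p = 0.216). The other probes were well above background on only some of these arrays: that at chr11:24068355-24068414 on 1 of 6 arrays at 4 Gy and 5 of 5 at 0 Gy, and that at chr11:24074059-24074118 on 2 of 6 and 2 of 5. In the same order they differed by -2.30 (adjusted p = 0.0584, limma over all probes) and -0.13 (adjusted p = 0.966), so the latter showed almost no change. Within the slides the brightest probe differed by -3.29 and -0.89. B cell markers had a median difference of -1.95 with 1 of 11 passing, Vpreb3 (-2.57, adjusted p = 0.0427, limma), against 0.237% of all genes. The mean level of the list ran from -0.24 to 1.28 at 4 Gy and from 1.38 to 2.48 at 0 Gy.

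The receptor and the other factors overlapped widely in Atm mice. Epor had a lowest level of 0.11, a median of 0.76 and a highest of 2.54 at 4 Gy, and levels of 1.22, 0.23, 1.43, 0.50 and 1.38 at 0 Gy, with a difference of 0.21 (95% interval -0.74 to 1.17). Replicates 1 and 4 stood above all other irradiated Atm mice for Gata1, Tal1, Nfe2 and Epor, and the same 2 arrays had platelet list means of 7.28 and 7.14, against 4.81 to 5.84 on the other 4. On the slides that held both doses Epor differed by -1.26 and 1.32. Of erythroid genes bound by GATA1 or KLF1, 20 of 30 had an unadjusted p under 0.05, all lower, against 12.1% of all genes. For 9 of 30 every irradiated mouse lay below every sham mouse, against 1.68% of all genes. The list's median was -1.23. With adjustment 1 of 30 passed, against 0.237% of all genes: the membrane gene Epb42 (protein 4.2, -2.45, adjusted p = 0.0219, limma). Leaving out Atm 4 Gy replicate 1 gave 6 genes, and leaving out replicate 6 of that group gave 4. The count became 0 when any 1 of Atm 4 Gy replicates 3, 4 and 5 or of Atm 0 Gy replicates 2, 3 and 4 was dropped. Neither erythropoietin signalling (0 of 16) nor the partner factors (0 of 30) had a gene past limma's adjusted threshold, and 2 and 4 of them had an unadjusted p under 0.05, all lower, shares near the 12.1% of all genes. Bcl2l1 differed by -1.58 (adjusted p = 0.128) and E2f2 by -1.77 (adjusted p = 0.112), and all irradiated E2f2 values (4.77 to 7.0) lay below the sham values (7.10 to 8.34).

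In Scid blood at 3 Gy no member passed either, against 1.07% of all genes called. The lowest fitted difference was again that of Lmo2 (-1.33) and the highest that of Gfi1b (1.06), and these 2 members had an unadjusted p under 0.05, as 9.6% of all genes had. The median of the members was 0.10, against 0.01 over all genes, and no member's groups separated, against 2.69% of all genes.

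Lmo2 levels were 4.46, 5.21, 2.48, 4.16 and 3.87 in Scid at 3 Gy and 5.98, 6.13, 5.20, 4.72 and 4.80 in Scid at 0 Gy. Of the irradiated mice 4 lay below every sham mouse and replicate 2 lay inside the sham range, with a difference of -1.33 (95% interval -2.26 to -0.40, adjusted p = 0.191). It was -1.67 and 0.01 within the slides and -1.48 and -0.67 within the scan days. Klf1 levels were -0.37, -1.005, -1.68, -1.16 and -1.54 at 3 Gy and -0.22, -0.40, -0.15, -1.20 and -0.23 at 0 Gy. The groups overlapped through sham replicate 4 and irradiated replicate 1, and the difference was -0.71 (95% interval -1.58 to 0.16, adjusted p = 0.632). Zfpm1 differed by -0.76 (95% interval -1.63 to 0.12, adjusted p = 0.609) and Ldb1 by -0.33 (adjusted p = 0.811).

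Gfi1b levels were 2.26, 3.42, 2.12, 3.21 and 3.06 in Scid at 3 Gy and 2.52, 1.80, 2.17, 1.22 and 1.06 at 0 Gy, with 3 of 5 irradiated mice above the sham range. The difference was 1.06 (95% interval 0.12 to 2.01, adjusted p = 0.412). Epor levels were 2.80, 3.35, 1.72, 2.59 and 2.47 at 3 Gy and 2.23, 1.97, 1.89, 1.13 and 0.80 at 0 Gy, a difference of 0.98 (95% interval -0.02 to 1.98, adjusted p = 0.534). For Epor 4 of 5 irradiated mice lay above every sham mouse and replicate 3 did not. Tal1 differed by 0.89, Gata1 by 0.66 and Nfe2 by 0.45, with adjusted p-values of 0.634, 0.745 and 0.838. Unlike in WT, these 5 genes kept a positive difference within both slides and both scan days that held both doses, from 0.03 to 2.12, both for Tal1. Platelet genes were likewise all fitted higher (18 of 18, median 0.62), with 0 passing limma's adjusted threshold and 0 at an unadjusted p under 0.05, and their list means ran from 6.60 to 7.97 at 3 Gy and from 5.60 to 7.47 at 0 Gy. The part of platelet RNA in the values of the 5 factors was not tested.

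The median of the erythroid genes bound by GATA1 or KLF1 was -1.64 in Scid. Of these 10 of 30 fell, among them Epb42 (-2.73, adjusted p = 0.00347, limma), and 0 rose, against 1.02% of all genes called lower. This count rested on few arrays: it was 1 without any 1 of Scid 3 Gy replicate 3 and Scid 0 Gy replicates 1 and 2, 2 without Scid 3 Gy replicate 5 and 4 without Scid 3 Gy replicate 4. Bcl11a had levels of -0.54, -1.25, -1.86, -0.82 and -2.35 at 3 Gy and -2.40, -1.44, -2.30, -0.01 and 0.58 at 0 Gy, above background on 2 arrays of each group, and the ranges overlapped (difference -0.25, adjusted p = 0.951). B cell markers had a median of -0.65 with 0 of 11 passing limma's adjusted threshold and 2 at an unadjusted p under 0.05. Of erythropoietin signalling genes 0 of 16 passed, and of partner factors 0 of 30, with 2 and 5 at an unadjusted p under 0.05, all lower. Bcl2l1 differed by -1.22 (adjusted p = 0.33) and E2f2 by -1.59 (adjusted p = 0.212).

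The responses were also set against each other. For Lmo2 the Atm response minus the WT response was 1.60 (95% interval 0.34 to 2.86, adjusted p = 0.482) and the Scid response minus the WT response 1.63 (95% interval 0.34 to 2.92, adjusted p = 0.678). For Klf1 these values were 0.94 (adjusted p = 0.663) and 1.06 (adjusted p = 0.679). A smaller fall of Lmo2 or Klf1 in Atm or Scid than in WT was therefore not shown over all genes, although both intervals for Lmo2 lie above 0. No gene of 15164 (0%) passed in either interaction with limma, with 1295 and 1078 genes (8.54% and 7.11%) at an unadjusted p under 0.05, of which Lmo2 was the 1 member in each. Both interactions share the 11 WT arrays. For the receptor the values were -0.79 (95% interval -2.14 to 0.56) and -0.03 (95% interval -1.41 to 1.36).

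Unirradiated Atm and Scid mice overlapped unirradiated WT mice for every member, where groups separated for 0.0989% of all genes in Atm against WT and for 0.0264% in Scid against WT. At 0 Gy no gene (0%) passed in Atm against WT or in Scid against WT with limma, where 344 and 497 genes (2.27% and 3.28%) had an unadjusted p under 0.05 and none of the 10 members did. Bcl11a had the largest differences, by its brightest probe at 1.05 ± 0.24 in Atm, -1.11 ± 1.35 in Scid and -0.16 ± 1.64 in WT (SD, n = 5, 5 and 6). That is 1.21 for Atm minus WT (95% interval -0.01 to 2.44, adjusted p = 0.999) and -0.95 for Scid minus WT (95% interval -2.17 to 0.27, adjusted p = 0.899). The Bcl11a probe at chr11:24074059-24074118 gave -0.55 for Atm minus WT, of the other sign, and -0.20 for Scid minus WT. That at chr11:24068355-24068414 gave 0.99 and -1.46, and neither probe passed. The Scid mutation impairs the making of B and T cells. B cell markers averaged 2.04 in Atm, -0.995 in Scid and 0.57 in WT at 0 Gy. Their list means ran from 1.38 to 2.48, from -2.33 to 1.02 and from -1.76 to 2.45, so Scid and WT overlapped. T cell markers averaged 1.93, 0.94 and 1.73 in the same order. The part of B or T cell number in the Bcl11a differences was not tested. Nfe2 was 0.83 higher in Scid than in WT (95% interval -0.02 to 1.69, adjusted p = 0.899), with 4 of 5 Scid mice above every WT mouse.

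Ordered by mean level over the 6 groups, Lmo2 ran from Scid 0 Gy (5.37 ± 0.66) through WT 0 Gy (5.31 ± 0.76), Atm 0 Gy (5.07 ± 0.34), Scid 3 Gy (4.04 ± 1.0) and Atm 4 Gy (3.70 ± 0.83) to WT 8 Gy (2.34 ± 0.55). Neighbours in this order overlapped in their ranges, including WT 8 Gy, whose highest mouse (2.90) lay above the lowest of Atm 4 Gy (2.57). Epor had another order, with Scid 3 Gy (2.58 ± 0.59) and WT 8 Gy (2.11 ± 0.74) highest, then Scid 0 Gy (1.60 ± 0.61), Atm 4 Gy (1.17 ± 0.94), WT 0 Gy (1.1 ± 1.06) and Atm 0 Gy (0.95 ± 0.55). Its neighbours overlapped as well. Gata1, Tal1, Nfe2 and Gfi1b likewise had their highest mean in Scid at 3 Gy, at 5.34 ± 0.53, 4.90 ± 0.71, 6.28 ± 0.30 and 2.81 ± 0.59.

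Across the 32 arrays the members fell into sets that shared their ups and downs, which were less distinct after the group means were subtracted. These correlations are descriptions over arrays that also share brightness, slide and cell mix. Gata1, Tal1, Nfe2, Gfi1b and Epor went together, with Pearson's r from 0.84 (Nfe2 with Gfi1b) to 0.95 (Gata1 with Epor), and r for Gata1 with Epor was 0.97 after each group's mean was subtracted. Lmo2 and Klf1 went together (r = 0.80, and 0.53 within groups) and Lmo2 with Zfpm1 (0.74 and 0.77). Lmo2 and Epor had r = -0.004 over all arrays but 0.67 within groups, so within a group mice high for one tended to be high for the other, while the groups themselves were ordered differently. Within groups Lmo2 with Gata1 (0.70) was above Lmo2 with Klf1 (0.53), and Zfpm1 had r of 0.80 with Epor and 0.78 with Gata1. Bcl11a ran against the first set, with r of -0.72 with Gfi1b and -0.655 with Epor.

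**Figure D3:**
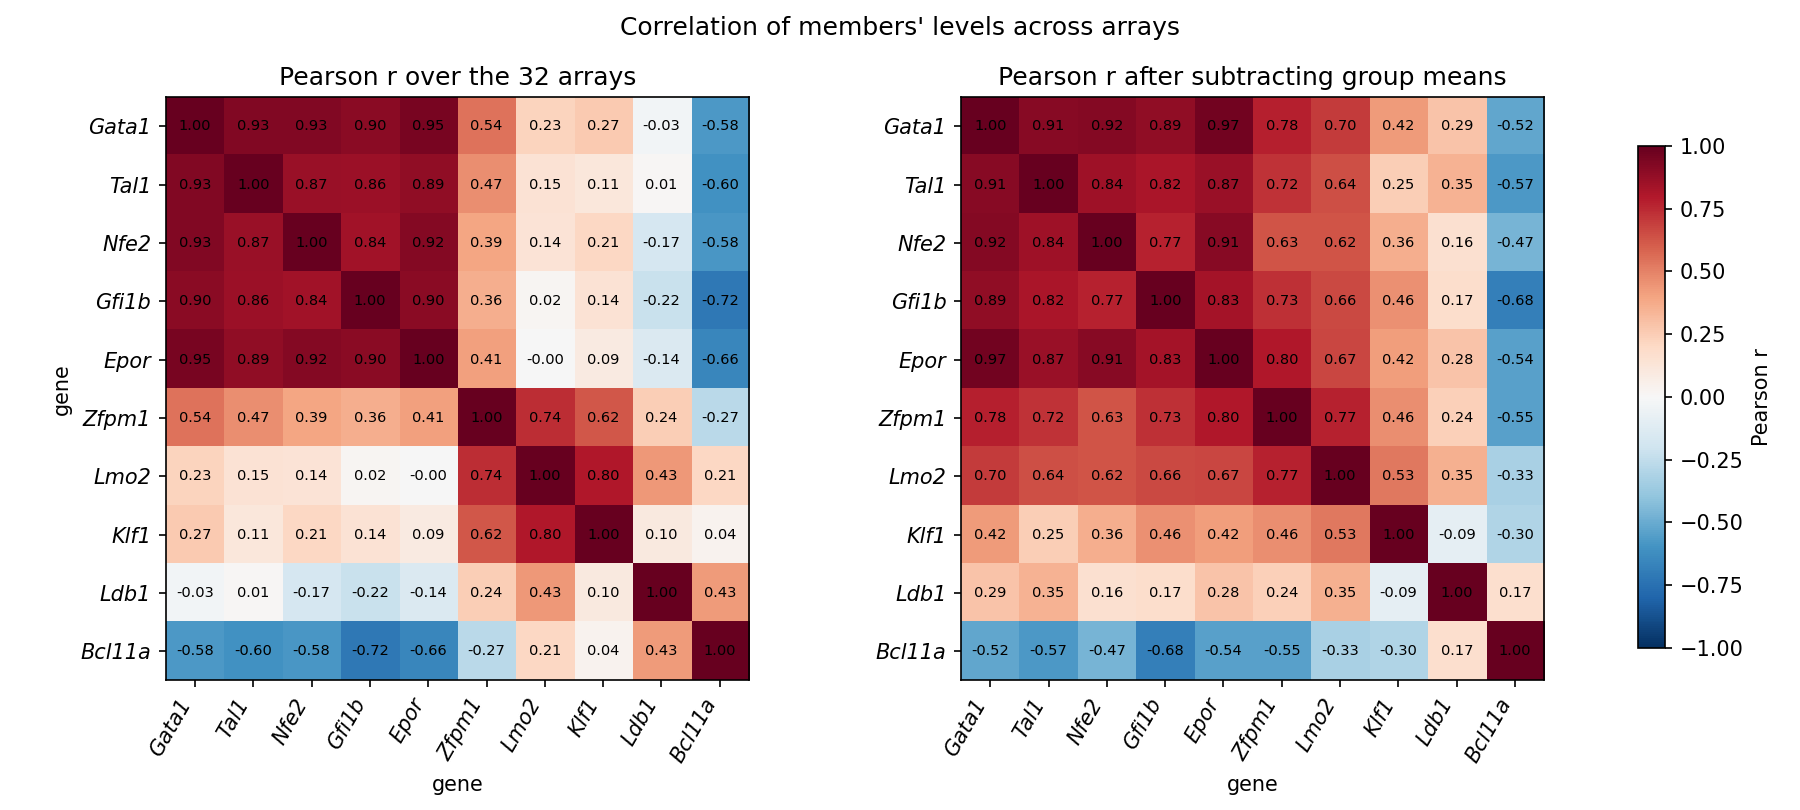
Pearson's r between the levels of each pair of genes over the 32 arrays (left) and after subtraction of the group means (right), with red for positive and blue for negative r. Gata1, Tal1, Nfe2, Gfi1b and Epor form a block at r of 0.84 to 0.95 on the left, and Lmo2 pairs with Klf1 (0.80) and Zfpm1 (0.74).

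Over all arrays the sets differed in the blood lists they followed, and less so within groups. The mean of the platelet list had r of 0.96 with Gata1, 0.94 with Nfe2, 0.94 with Tal1, 0.93 with Epor and 0.88 with Gfi1b, but 0.24 with Lmo2 and 0.285 with Klf1. Within groups it had r of 0.85 to 0.95 with those 5 genes, 0.80 with Zfpm1, 0.70 with Lmo2 and 0.41 with Klf1. The mean of the erythroid list bound by GATA1 or KLF1 had r of 0.96 with Lmo2, 0.83 with Klf1 and 0.72 with Zfpm1, but 0.16 with Gata1 and -0.06 with Epor. Within groups the erythroid list had r of 0.85 with Lmo2, 0.84 with Zfpm1, 0.73 with Epor, 0.71 with Gata1 and 0.65 with Klf1. The contrast of Klf1 with Gata1 and Epor over all arrays was thus not seen within groups. The B cell list had r of 0.87 with Bcl11a (0.78 within groups) and 0.55 with Ldb1 (0.32 within groups). The T cell list had r of 0.70 with Bcl11a (0.56 within groups) and 0.65 with Ldb1 (0.54 within groups). Basophil and mast cell markers, which include genes that GATA factors control, had r of 0.16 with Gata1, and of their 8 listed genes Mcpt8 was well above background on 0 arrays, Ms4a2 on 1, Kit on 4 and Fcer1a on 5, but Il1rl1 on 15, Cpa3 on 22, Prss34 on 23 and Hdc on 32.

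**Figure D4:**
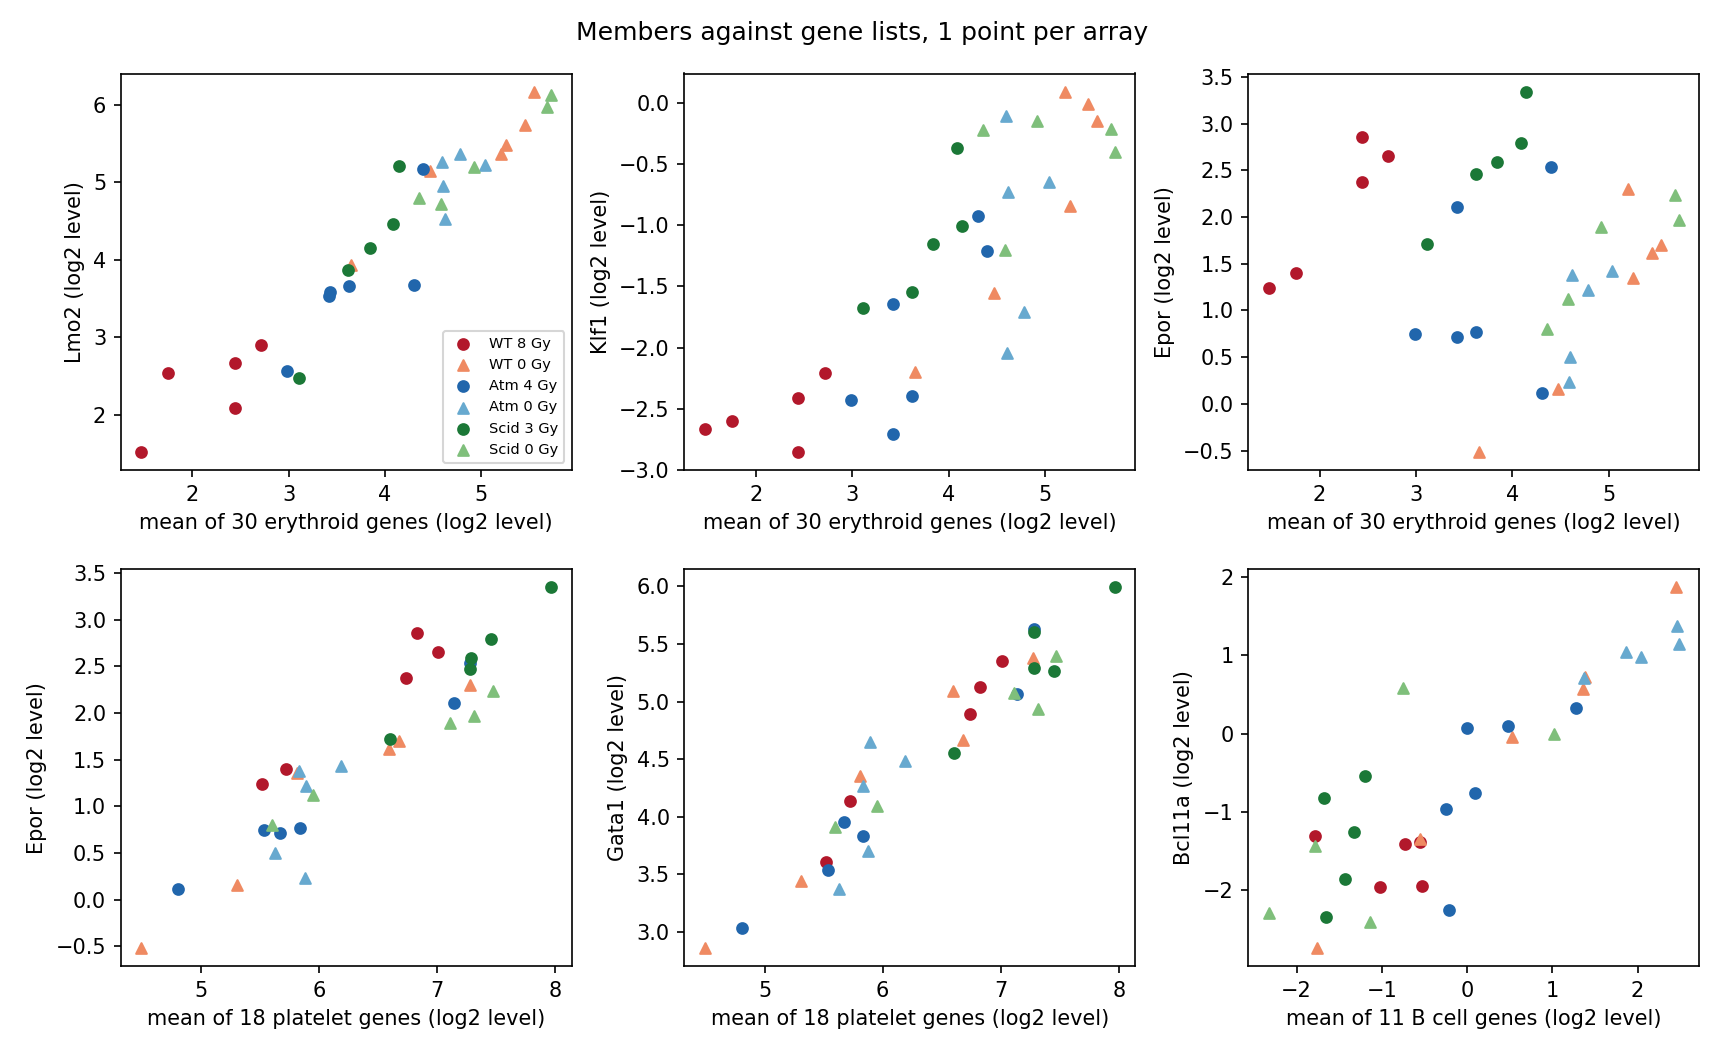
Level of a gene (y axis, log2) against the mean level of a gene list (x axis, log2), 1 point per array, circles irradiated and triangles 0 Gy. Over all arrays Lmo2 and Klf1 follow the erythroid list (r = 0.96 and 0.83) and Epor does not (-0.06). Within groups r with that list was 0.85 for Lmo2, 0.65 for Klf1 and 0.73 for Epor. Epor and Gata1 follow the platelet list (0.93 and 0.96), and Bcl11a follows the B cell list (0.87).

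Among all genes tested, the 3 whose level was most like each member's over the 32 arrays are given with Pearson's r. For Gata1 they were Cd81 (r = 0.96), St7 (0.96) and Zyx (0.95), for Tal1 Tspan2 (0.98), Herpud2 (0.97) and Lrrn3 (0.97), and for Nfe2 Tmem40 (0.97), Bin1 (0.97) and Gatad1 (0.97). Epor had Pdgfa (0.96), Smim3 (0.95) and Gata1 (0.95), and Gfi1b had Smim3 (0.92), Jcad (0.90) and Pgap4 (0.90). Lmo2 was most like Ube2c (0.97), Ccndbp1 (0.97) and Bsdc1 (0.96), and Klf1 most like Fis1 (0.88), Ndufa3 (0.88) and Bola3 (0.87). Zfpm1 had Fam214b (0.92), Nudcd3 (0.91) and Marchf8 (0.91). Bcl11a had Gpr183 (0.86), B3gnt5 (0.86) and H2-Ob (0.85), and Ldb1 had Tbc1d10c, Mcm4 and Sash3 at 0.80 each.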

How the data were processed

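The files are 1-colour Agilent scanner outputs holding processed signals as intensity, which Feature Extraction had background-subtracted, with version 11.5.1.1 per the file headers and 12.0.2 per the submitters' processing notes. The deposited series matrix holds log2 values that the authors normalized, with steps not given in the sources used here, and it was used as an alternative. Here log2 of the processed signal minus the array's 75th percentile was averaged over spots of a probe. Control and outlier spots were left out, and a probe was kept if 4 or more arrays of some group had it well above background (18373 of 39429). Each gene was represented by its brightest probe, and the 5 between-group comparisons and 2 interactions were fitted over all 6 groups with limma 3.58.1 (R 4.3.3, data.table version 1.17.8), with Benjamini-Hochberg adjustment over 15164 genes and a threshold of 0.05. The number of arrays limits precision, and mice are the replicates.

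The members and lists were chosen with earlier results of these data known. All 10 members are named, of each other list described up to 3 called genes of largest absolute difference per irradiation comparison, or the 2 brightest where none was called, and for each member the 3 genes of highest Pearson's r. Some genes that the rule takes are not reported here. Genes named outside this rule are marked as such or described by array counts. Alternatives covered background correction, scaling, filters, probe choice, slide, scan day and replicate blocks, array weights, brightness, the series matrix and leaving out arrays. The code was tested on simulated data. Replicate numbers from the labels did not pair mice: correlations of same-numbered mice ran from -0.72 to 0.35. Figures used Python 3.11.15 and matplotlib 3.10.9.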

Additional observations from a re-analysis of the deposited data

Results flagged for a closer look

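Among 60 groups (10 genes in 6 groups), 2 held a mouse far from the others of its group, where chance alone sets apart about 1 in 20 groups. The Klf1 level of Scid 0 Gy replicate 4 was -1.20, against -0.40 to -0.15 in the other 4 mice, a gap of 0.76 of the group's range. The Gfi1b level of Atm 4 Gy replicate 1 was 2.98, against 0.40 to 1.19 in the other 5 mice, a gap of 0.695 of the range.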

How the results depend on the processing

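Values here are log2 differences or numbers of members called. In WT the 2 calls became 5 with the 75th percentile of those probes that every array detected, 6 with spike-in scaling, 6 with array weights and 4 with the deposited series matrix values, and 1 with slide as a block, with the brightness covariate and with only probes detected on all arrays, which left 7 members tested. It was 3 after normexp, with neither Lmo2 nor Klf1 among them (Gfi1b and Epor higher, Bcl11a lower), and 3 with the mean of each gene's probes (Bcl11a added). Lmo2 was called lower in 14 of 15 settings (not after normexp) and Klf1 in 10 of 14, while Epor, Gfi1b and Nfe2 were called higher in 5, 5 and 3 of 15 and Bcl11a lower in 2 of 14. In Atm the count of 0 became 10 with spike-in scaling and 1 (Lmo2) with array weights or the series matrix; in Scid it became 2 (Zfpm1 and Lmo2) with array weights and 1 (Lmo2) with the series matrix. For the Atm interaction spike-in scaling gave 9, with Lmo2 at -1.17 and Klf1 at -1.83. Leaving out 1 mouse at a time gave 2 to 3 calls in WT, 0 to 1 in Atm (Lmo2, without Atm 4 Gy replicate 1) and 0 to 0 elsewhere. The replicate block gave 2 calls in WT and 0 in each of the other comparisons, and over all genes 935, 75 and 196 calls in WT, Atm and Scid, against 1093, 36 and 163 without it; of 5 pairs per genotype 0, 2 and 0 irradiated mice correlated best with their own number. Signs turned as follows. In WT, Zfpm1 was 0.246 after normexp and 0.253 with spike-in scaling, and Ldb1 was 0.0433 with the percentile of detected probes, 0.873 with spike-in scaling and 0.0425 in the series matrix. In Atm, normexp gave -0.301 for Gata1, -0.214 for Tal1, -0.267 for Nfe2, -0.00169 for Gfi1b, -0.0293 for Epor and 0.000332 for Klf1. Spike-in scaling there gave -1.42, -1.45, -1.4, -1.36 and -1.29 for Gata1, Tal1, Nfe2, Gfi1b and Epor. The array median gave -0.11, -0.14, -0.0854 and -0.0427 for Gata1, Tal1, Nfe2 and Gfi1b, and the brightness covariate -0.0596, -0.0628, -0.0684 and -0.00112. The series matrix gave -0.0585, -0.0885 and -0.0338 for Gata1, Tal1 and Nfe2. Zfpm1 was 0.153 with slide and 0.169 with scan day as a block, and Ldb1 0.102 and 0.0458, and 0.0667 with the percentile of detected probes. Without 1 mouse the Atm differences ran from -0.209 to 0.311 for Gata1, -0.231 to 0.381 for Tal1, -0.163 to 0.362 for Nfe2, -0.192 to 0.324 for Gfi1b and -0.0614 to 0.424 for Epor. In Scid, Bcl11a was 0.034 after normexp, 0.0597 with spike-in scaling, 0.382 with array weights and -0.575 to 0.172 without 1 mouse. The cause of these shifts was not tested. Spike-in scaling moved the median of all genes to 1.24 in WT, -1.66 in Atm and 0.32 in Scid, and its WT calls were 3798 higher and 163 lower; normexp gave 276 and 193, and the series matrix 381 and 599. Over all genes, Atm calls numbered 0 with slide or scan day as a block, 373 in the series matrix, 543 with array weights and 274 without Atm 4 Gy replicate 1. Counts for the other lists, tried after seeing the data, ran over these settings from 7 to 26 in WT, 0 to 28 in Atm and 0 to 21 in Scid for the erythroid list, 0 to 6, 0 to 13 and 0 to 2 for erythropoietin signalling, 1 to 8, 0 to 29 and 0 to 7 for the partner factors, and 0 to 13, 0 to 11 and 0 to 0 for the platelet list.

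Precision is limited by 5 or 6 mice a group and by signal over background: Klf1 and Bcl11a were well above background on 22 of 32 arrays each. Blood holds many cell types, and no cell counts were used here.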
